A study of Mus musculus with 6 samples.

Results

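The vascular endothelial growth factor (VEGF) ligands Vegfa, Vegfb, Vegfc and Pgf and the receptors Flt1, Kdr and Flt4 were followed in soleus, a slow postural muscle, of C57Bl/6 mice whose hindlimbs had been unloaded by suspension. These 7 genes were chosen by the gene symbol that the platform annotation gives each probe, and each had 1 probe, so that they are 7 of the 223 probes and of the 203 named genes on the array. All 6 arrays, numbered 1 to 6 in the labels, belong to this suspended group, each from 3 microgram of total RNA isolated from cryosections, and the sample titles mark the animals as wt. No loaded or reloaded muscle was analysed here, so the data describe how these transcripts were detected in unloaded muscle and how they varied between arrays. The labels do not say whether each array came from a separate animal, and the spread may be partly technical. The length of the suspension is not spelled out in the labels.

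VEGF ligands are secreted dimers that bind receptor tyrosine kinases on endothelial cells. The Vegfa protein binds the receptors encoded by Kdr, which carries most of the signal for endothelial growth and survival, and by Flt1, which binds the ligand tightly, signals weakly and exists partly as a soluble trap. The products of Vegfb and Pgf bind the Flt1 receptor but not the Kdr receptor, and that of Vegfc binds the Flt4 receptor, found mainly on lymphatic endothelium, and after processing also the Kdr receptor. In muscle the ligand Vegfa is made largely by the fibres, while the receptors lie mostly on the capillaries, and this exchange helps to match capillary supply to use.

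The deposited values are linear intensities in a unit of the authors, from which a background had been subtracted, so that a probe without signal lies near 0. A value at or below 0 was taken as not detected. The size of the most negative value of an array, between 0.0005 and 0.0020, was used as a rough measure of its noise. For probes above 0 on all 6 arrays (171 of 223) the level is log2 of the value minus the median over these probes on the same array, and a step of 1 is thus a doubling. Brightness differs from probe to probe with hybridisation and labelling. A higher level or ratio is therefore not read as more transcript, and only its change between arrays is described. Replicate 1 stood apart over the array as a whole, since its correlations with the other arrays over the 171 probes were 0.86 to 0.91, against 0.957 to 0.977 among the others, and its intensities summed to 37.5, against 15.3 to 18.5. Results are therefore given with and without it.

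Of the 7 genes, 6 were detected on all 6 arrays, namely the ligands Vegfa, Vegfb and Vegfc and the receptors Flt1, Kdr and Flt4. The placental growth factor gene Pgf was not. Among all probes on the array 76.7% were detected on all arrays. By the stricter measure of exceeding the noise on every array, 4 genes were detected, Vegfa, Vegfb, Flt1 and Kdr. This bound also removed probes of other genes, since all probes passing it formed 8911 pairs, against 14535 for the looser bound. The fall from 6 to 4 is therefore not read as particular to the VEGF genes. Vegfc exceeded the noise on 4 arrays, Flt4 on 5 and Pgf on 1. The values of Vegfb and Flt1 on replicate 1 lay on opposite sides of those of the other 5 arrays, whereas Kdr had nearly the same level on every array.

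**Figure D1:**
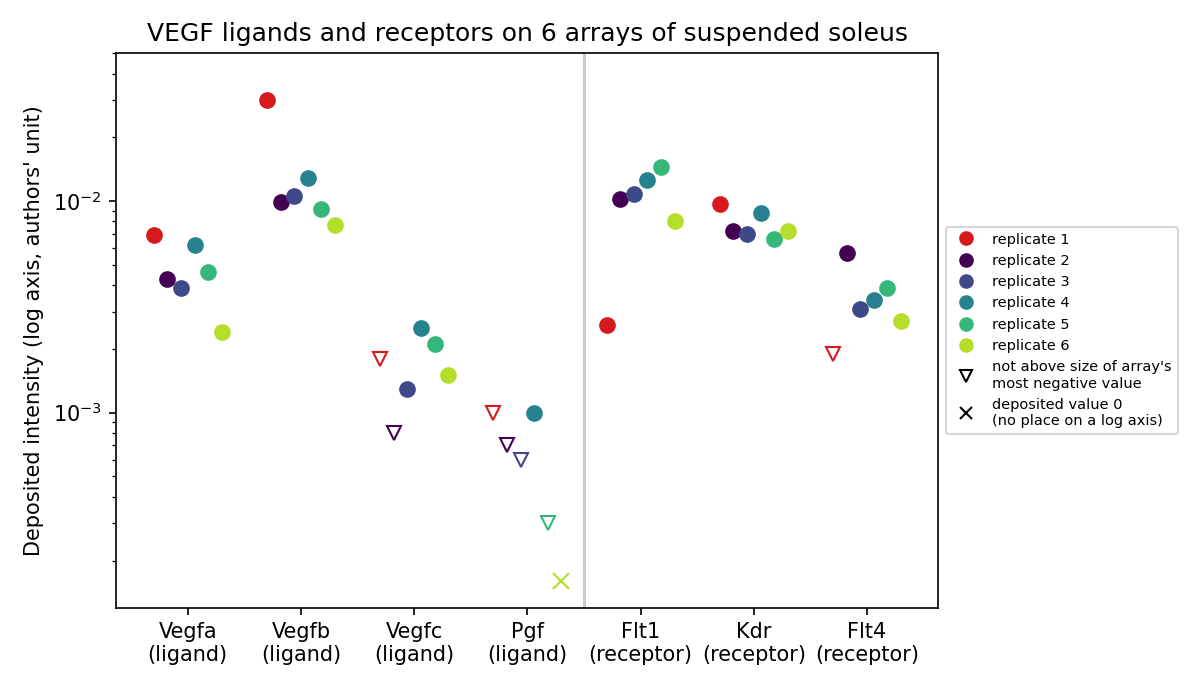
Deposited intensity (log axis) of the 7 genes on each of the 6 arrays, with red points for replicate 1; open triangles are values that do not exceed the size of that array's most negative value, and the cross is a deposited value of 0. Vegfb is highest and Flt1 lowest on replicate 1, while the 6 values of Kdr lie between 0.0066 and 0.0097.

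Promoter sequences of RefSeq (build GRCm38.p6), which lists all 7 genes, are shown for the 3 genes that departed most on replicate 1, Flt1, Flt4 and Vegfb, and for Kdr, which had the smallest SD of the 6 measured genes over all arrays, though not over replicates 2 to 6. Each run covers the 250 bases before the annotated start, 5′ to 3′ on the strand of the gene. Flt1 is taken from chr5:147726012-147726261 (minus strand), Flt4 from chr11:49609429-49609678 (plus strand), Kdr from chr5:75978456-75978705 (minus strand) and Vegfb from chr19:6987652-6987901 (minus strand). Capitals mark matches on either strand to the core of the hypoxia response element (ACGTG or GCGTG), the GC box (GGGCGG), an ETS site (AGGAAG), the TATA box (TATAAA) and the cAMP response element (TGACGTCA). No match overlaps another, though 2 GC boxes of Vegfb lie directly side by side.
Flt1: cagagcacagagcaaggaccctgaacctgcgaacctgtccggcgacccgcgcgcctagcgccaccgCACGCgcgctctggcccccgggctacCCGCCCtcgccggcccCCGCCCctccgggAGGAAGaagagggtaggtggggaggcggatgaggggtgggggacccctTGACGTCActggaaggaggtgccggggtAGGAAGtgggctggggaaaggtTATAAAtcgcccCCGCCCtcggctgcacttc
Flt4: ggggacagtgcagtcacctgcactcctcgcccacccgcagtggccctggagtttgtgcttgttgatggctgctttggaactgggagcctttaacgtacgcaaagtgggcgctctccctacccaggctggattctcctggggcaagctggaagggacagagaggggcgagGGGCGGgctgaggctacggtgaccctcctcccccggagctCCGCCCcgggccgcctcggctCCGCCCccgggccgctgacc
Kdr: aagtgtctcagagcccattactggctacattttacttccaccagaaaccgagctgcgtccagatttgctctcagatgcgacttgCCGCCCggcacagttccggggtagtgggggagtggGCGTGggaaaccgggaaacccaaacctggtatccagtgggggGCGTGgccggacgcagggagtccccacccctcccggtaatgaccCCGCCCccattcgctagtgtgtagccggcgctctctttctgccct
Vegfb: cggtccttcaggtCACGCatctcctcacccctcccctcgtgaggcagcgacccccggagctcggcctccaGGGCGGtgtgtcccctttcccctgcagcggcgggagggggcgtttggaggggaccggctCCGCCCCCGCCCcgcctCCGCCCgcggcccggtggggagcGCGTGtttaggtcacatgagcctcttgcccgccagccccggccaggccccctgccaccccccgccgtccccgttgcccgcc

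All 7 promoters held a GC box, which occurred in 32.7% of the 32851 promoter windows of the same length, and their GC content was 59.2% to 76.4%, against a median of 52.4% over all windows. For Vegfa and Pgf, which have 2 listed starts each, the first listed was used. The Flt1 promoter was the only one of the 7 with the ETS motif (2 matches, 53 and 129 bases before the start), the TATA motif (31 bases before) and the cAMP motif (81 bases before). Over all windows these motifs occurred in 29.5%, 12.4% and 1.55%. The hypoxia motif, present in 38.6% of all windows, had 2 matches in Kdr, 2 in Vegfb, 1 in Flt1 and 1 in Pgf, and none in these windows of Vegfa, Vegfc and Flt4. The motifs were chosen with the sequences in view. A match describes the letters only, and no binding was measured.

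Among the ligands, Vegfa, the main growth factor for blood vessels, had deposited intensities of 0.0069, 0.0043, 0.0039, 0.0062, 0.0046 and 0.0024 on replicates 1 to 6. Replicate 6 was the lowest and replicate 1 the highest, and the highest value was 2.88 times the lowest. By level, which is centred on each array, replicate 4 was the highest at -0.66, with replicate 1 at -0.74. The level was -0.93 ± 0.29 (SD, n = 6), and -0.97 ± 0.31 without replicate 1 (n = 5). Of the 171 probes, 42 had a smaller SD than Vegfa, so its spread was below the median SD of 0.48. The SD was 0.17 without replicate 6 and 0.54 without centring.

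Vegfb, a ligand linked in muscle to fatty acid uptake as well as to vessels, had intensities of 0.0299, 0.0099, 0.0106, 0.0128, 0.0092 and 0.0077. The first of these, on replicate 1, lay far above the rest, which stayed within a factor of 1.66 of each other. The level was 0.49 ± 0.45 (SD, n = 6). Without replicate 1 it was 0.31 ± 0.10 (n = 5), and only 2 of the 171 probes had a smaller SD over the same 5 arrays. On replicate 1 the level was 1.07 above the mean of the other arrays, a factor of 2.10.

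Vegfc, the ligand of lymphatic growth, was close to background. Its intensities were 0.0018, 0.0008, 0.0013, 0.0025, 0.0021 and 0.0015, and those on replicates 1 and 2 did not exceed the noise of their arrays. The level was -2.44 ± 0.51 (SD, n = 6), and -2.39 ± 0.55 without replicate 1 (n = 5). The table gives 4 decimals, and at the lowest value of Vegfc this rounding alone leaves a window of 0.18 on the log2 scale.

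Pgf, which is known to be raised in vessel repair and to bind Flt1 alone among these receptors, had intensities of 0.0010, 0.0007, 0.0006, 0.0010, 0.0003 and 0. The value on replicate 4 alone exceeded the noise of its array. Pgf was therefore left out of levels, ratios and correlations. A low signal of 1 probe does not show that the transcript was absent.

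Among the receptors, Flt1 had intensities of 0.0026, 0.0102, 0.0108, 0.0126, 0.0145 and 0.0080. Replicate 1 was the lowest and did not overlap the others, which lay within a factor of 1.81. The level was 0.02 ± 1.08 (SD, n = 6), and 0.46 ± 0.21 without replicate 1 (n = 5). Of the 171 probes, 157 had a smaller SD than Flt1 over 6 arrays, but 39 over the 5 arrays. Replicate 1 minus the mean of replicates 2 to 6 was -2.60, a factor of 6.08, and 7 probes lay further below. The intensity of 0.0026 on replicate 1 was not far above the noise of that array, 0.0020.

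Kdr, the main signalling receptor, had intensities of 0.0097, 0.0072, 0.0070, 0.0088, 0.0066 and 0.0072. The highest, on replicate 1, was 1.47 times the lowest, on replicate 5. By level, which is centred on each array, the highest was replicate 6 at 0.15, and replicate 1 was at -0.25. The level was -0.15 ± 0.17 (SD, n = 6), and 8 of the 171 probes had a smaller SD. Without replicate 1 the SD was 0.18 (n = 5), and 24 probes had a smaller one. The SD was 0.10 without replicate 6 and 0.32 when arrays were scaled to equal totals.

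Flt4 had intensities of 0.0019, 0.0057, 0.0031, 0.0034, 0.0039 and 0.0027. Replicate 1 was the lowest and, unlike the others, did not exceed the noise of its array, and replicate 2 was the highest. The level was -1.38 ± 0.72 (SD, n = 6), and -1.14 ± 0.45 without replicate 1 (n = 5). Replicate 1 minus the mean of replicates 2 to 6 was -1.46. In whole muscle, fewer endothelial cells and less receptor RNA per cell cannot be told apart.

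**Figure D2:**
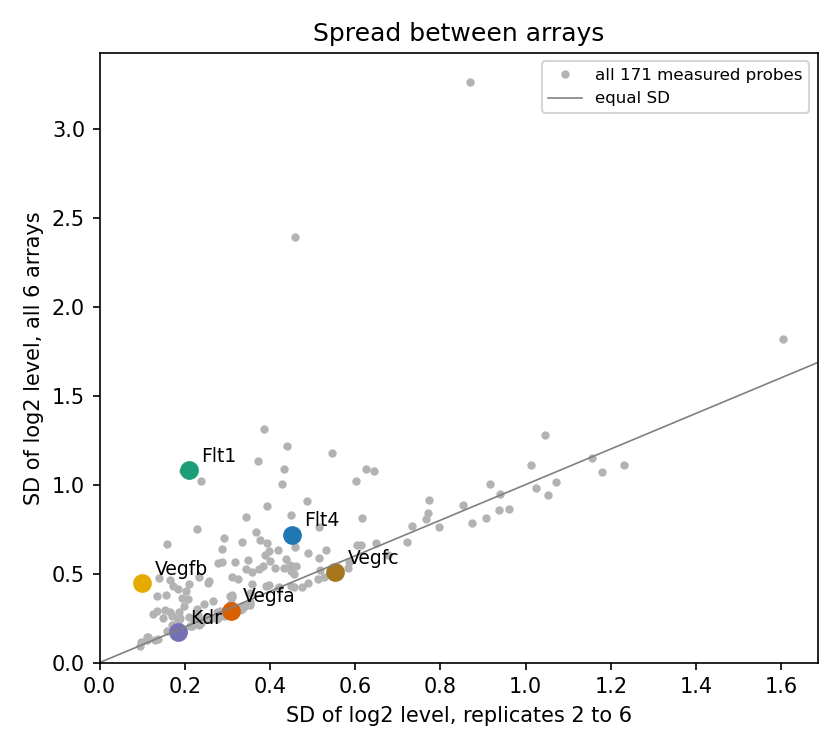
SD of the log2 level over all 6 arrays (vertical axis) against the SD over replicates 2 to 6 (horizontal axis) for the 171 measured probes in grey, with the 6 measured VEGF genes named; the line marks equal SDs. Flt1 and Vegfb lie far above the line, at 1.08 against 0.21 and at 0.45 against 0.10, while Kdr, Vegfa and Vegfc lie close to it.

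The median SD of the 6 measured genes was 0.48, the same as the median of 0.48 over all 171 probes, and 3 of the 6 lay below that median. Without replicate 1 the medians were 0.26 and 0.34, and 4 of the 6 lay below.

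On replicate 1 the receptors Flt1 and Flt4 were lower and the ligand Vegfb higher than on the other arrays. A difference between ligands and receptors as groups was not tested. Flt1 and Flt4 were more than 2-fold below the mean of the others, as were 16.4% of all measured probes, and Vegfb was more than 2-fold above, as were 17% of them. Vegfa (0.23), Vegfc (-0.28) and Kdr (-0.12) differed by less than 1 unit. The median over all 171 probes was 0.13. Relative to it the differences were -2.73 for Flt1, -1.58 for Flt4, 0.95 for Vegfb, -0.41 for Vegfc, -0.24 for Kdr and 0.11 for Vegfa. Flt1 and Flt4 stayed lower and Vegfb higher on replicate 1 without centring (-2.08, -0.94 and 1.59), with equal totals (-3.18, -2.04 and 0.49), quantile normalization (-2.55, -1.27 and 1.20) and a lowess curve removed (-2.58, -1.74 and 1.08). The direction turned for Vegfa with equal totals (-0.35), and without centring for Vegfc (0.24) and Kdr (0.41). The median over all probes moved as well, to -0.45 with equal totals and 0.65 without centring. Relative to it the differences stayed at 0.11 for Vegfa, -0.41 for Vegfc and -0.24 for Kdr. With the size of the most negative value added to each array the difference of Flt1 was -1.97, that of Flt4 -0.81 and that of Vegfb 0.96, and that of Vegfc turned to 0.0085.

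The 3 ligands together deviated from their own means by 0.28 on average on replicate 1 and the 3 receptors by -1.16. These averages join unlike members. Vegfb was at 0.89, Vegfa at 0.19 and Vegfc at -0.23, and Flt1 was at -2.17, Flt4 at -1.21 and Kdr at -0.10. The values of Vegfc and Flt4 on replicate 1 did not exceed the noise. On replicates 2 to 6 the ligand means were -0.25, -0.19, 0.21, 0.08 and -0.14, and the receptor means 0.50, 0.06, 0.06, 0.31 and 0.23. The receptor means all lie above 0 there because replicate 1 lowers the mean of Flt1 and Flt4.

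**Figure D3:**
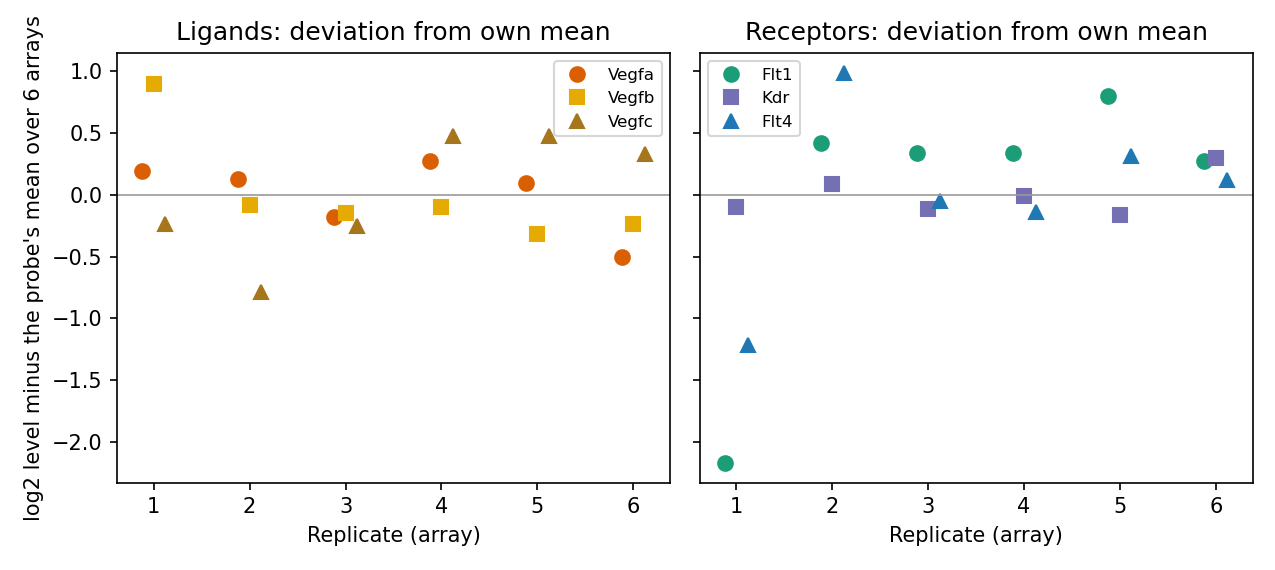
Deviation of each measured ligand (left) and receptor (right) from its own mean over the 6 arrays, in log2 units, by replicate. On replicate 1 Flt1 is at -2.17 and Flt4 at -1.21 while Vegfb is at 0.89, and Kdr stays between -0.17 and 0.30 on all arrays.

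Ligands and receptors were compared within arrays to see how far their proportion was kept from array to array, since a ratio taken on 1 array does not depend on any factor that scales the whole array. The smallest spread of the 5 binding pairs on replicates 2 to 6 was that of Vegfb with its receptor Flt1, though that of Vegfa with Flt1 was nearly as small. The Vegfb probe had 0.97, 0.98, 1.02, 0.63 and 0.96 times the intensity of the Flt1 probe on these arrays, and 11.5 times on replicate 1. The difference on the log2 scale was 0.46 ± 1.52 (SD, n = 6) with all arrays, and -0.15 ± 0.28 without replicate 1 (n = 5), so its sign depended on that array. There the Flt1 value was not far above the noise.

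Vegfa minus Flt1 also stood apart on replicate 1, at 1.41 on the log2 scale, against -1.25, -1.47, -1.02, -1.66 and -1.74 on replicates 2 to 6. The mean was -0.95 ± 1.19 (SD, n = 6), and -1.43 ± 0.29 without replicate 1 (n = 5). Against Kdr, the other receptor of the same ligand, replicate 1 did not stand apart. Vegfa minus Kdr was -0.49, -0.74, -0.84, -0.51, -0.52 and -1.58 on replicates 1 to 6, with replicate 6 the lowest, and the mean was -0.78 ± 0.42 (SD, n = 6).

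Vegfc minus Kdr was -2.29 ± 0.54 (SD, n = 6), with values from -3.17 on replicate 2 to -1.65 on replicate 5. Vegfc minus Flt4 was -1.06 ± 0.96 (SD, n = 6), with -2.83 on replicate 2, -0.08 on replicate 1 and values from -1.25 to -0.44 on the remaining 4 arrays. Both rest on values near background. Over the 5 binding pairs the median SD of the difference was 0.96, against 0.73 over all 14535 pairs of measured probes. Without replicate 1 the medians were 0.44 and 0.53.

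**Figure D4:**
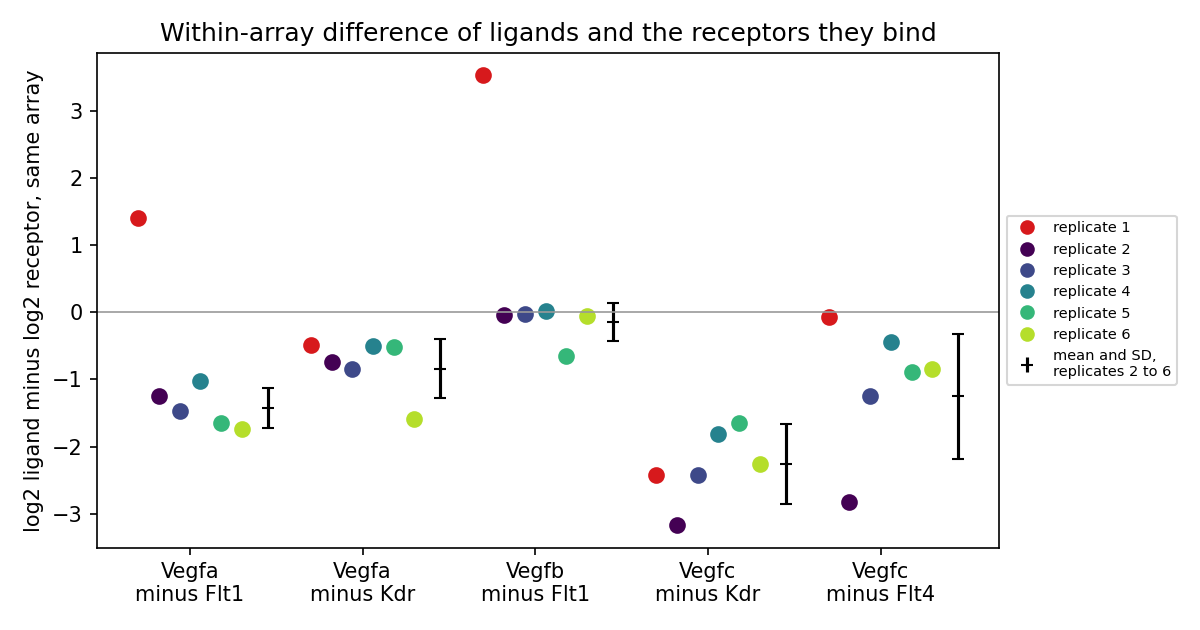
Log2 intensity of a ligand minus log2 intensity of a receptor it binds, on the same array, for 5 pairs and 6 arrays (red, replicate 1), with bars for the mean and SD over replicates 2 to 6. Replicate 1 is at 3.52 for Vegfb minus Flt1 and at 1.41 for Vegfa minus Flt1, above all other arrays, but at -0.49 it is next to replicates 4 and 5 for Vegfa minus Kdr, and it lies among the others for Vegfc minus Kdr.

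The receptors were also set against each other. Flt1 minus Kdr ran from 0.15 to 1.14 over replicates 2 to 6 and was -1.90 on replicate 1. Flt1 minus Flt4 ran from 0.84 to 1.89 over replicates 2 to 6 and was 0.45 on replicate 1, where Flt1 was further below its other arrays than Flt4 and the value of Flt4 did not exceed the noise. Among the ligands, the Vegfa probe had 0.31 to 0.50 times the intensity of the Vegfb probe over replicates 2 to 6, against 0.23 times on replicate 1.

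Whether ligand and receptor levels rose and fell together over the 6 arrays was tested with an exact permutation test over all 720 pairings, two-sided, for every pair of measured probes. Of the 14535 pairs, 0 (0%) passed a Benjamini-Hochberg adjusted p of 0.05 by Pearson's r and 0 by Spearman's rho, the smallest adjusted p being 0.33 and 0.45. With 6 arrays the smallest exact p by Pearson is 0.0014. For such a p to pass, 404 pairs would have to reach it, and 59 did. By Spearman the smallest exact p is larger, since a fully reversed order gives a rho of the same size. A count of 0 therefore says little about any single pair. At an unadjusted p under 0.05 there were 1697 pairs (11.7%) by Pearson and 855 (5.88%) by Spearman. Of the 15 pairs among the 6 measured genes, 2 were under 0.05 unadjusted by Pearson and 0 by Spearman. The 2 were Vegfb with Flt1 and Flt1 with Flt4.

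Vegfb and Flt1 had r = -0.99 (exact p = 0.033, adjusted 0.38) and rho = -0.46 (exact p = 0.39, adjusted 0.86). The value rests on replicate 1, since r was -0.64 without it and 0.87 without replicates 1 and 5, the arrays farthest from the median of Vegfb. Flt1 and Flt4 had r = 0.84 (exact p = 0.042, adjusted 0.40) and rho = 0.75 (exact p = 0.094, adjusted 0.65), with r = 0.26 without replicate 1 and 0.75 without replicates 1 and 5, the arrays farthest from the median of Flt1.

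The other binding pairs had smaller correlations. For Vegfa and Kdr r was -0.62 (exact p = 0.19, adjusted 0.55) and rho -0.09 (exact p = 0.92, adjusted 0.99), and r was 0.22 without replicates 3 and 6. For Vegfa and Flt1 r was -0.25 (exact p = 0.68, adjusted 0.88) and rho -0.03 (exact p = 0.99, adjusted 1), and r was -0.29 without replicates 3 and 6. For Vegfc and Flt4 r was -0.20 (exact p = 0.73, adjusted 0.90) and rho -0.14 (exact p = 0.80, adjusted 0.96), and r was 0.54 without replicates 2 and 5. For Vegfc and Kdr r was -0.0098 (exact p = 0.99, adjusted 1.00) and rho -0.31 (exact p = 0.56, adjusted 0.90), and r was 0.65 without replicates 2 and 5. None of these 4 kept its sign under every scaling and left-out array. Levels on 1 array share its scaling, and the median r over all pairs of probes was 0.02.

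**Figure D5:**
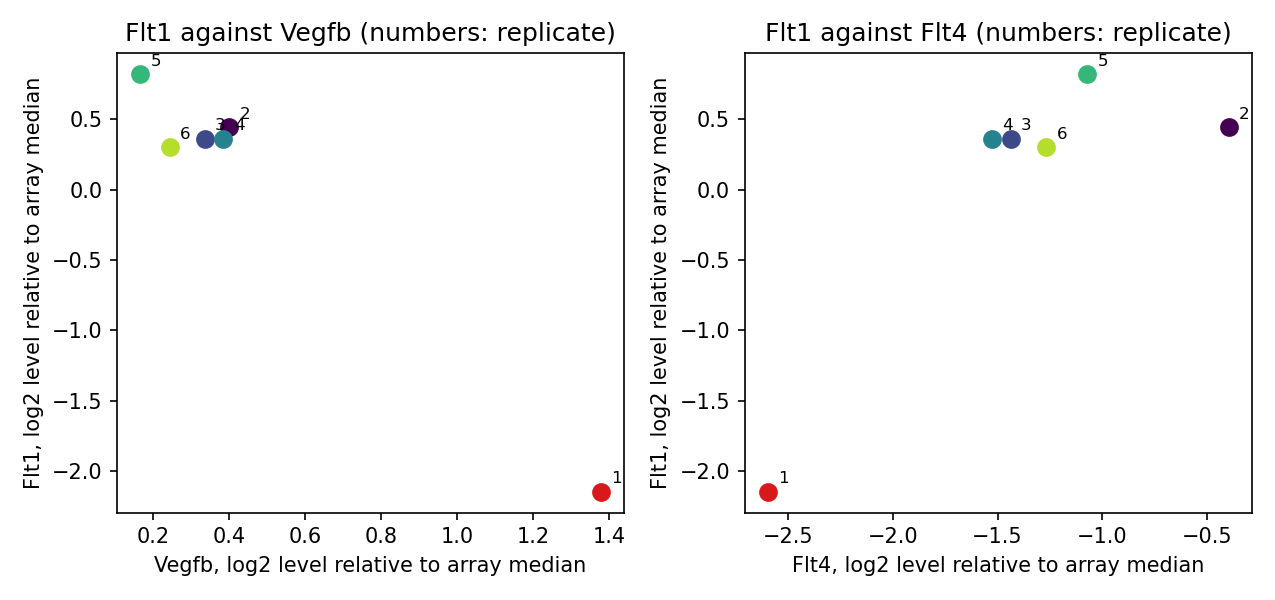
Level of Flt1 (log2, relative to the array median) against that of Vegfb (left) and of Flt4 (right), with 1 point per array and its replicate number. Replicate 1 lies far from the other 5 arrays in both panels, and without it r is -0.64 on the left and 0.26 on the right.

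For each measured gene the 3 named probes with the highest Pearson correlation over the 6 arrays are given as a description. Flt1 was most like Nos2 (r = 0.99), the inducible nitric oxide synthase, Ang (0.97), an angiogenin ribonuclease, and Csf2rb2 (0.96), a cytokine receptor subunit. All were low on replicate 1, and without it r was 0.71, 0.52 and 0.58. The intensity of Nos2 was 0.0001 there, below the noise of the array, against 0.0024 to 0.0053 on the others. Flt4 was most like the ephrin Efnb1 (0.97), the cyclin Ccna1 (0.96) and the endothelial adhesion molecule Pecam1 (0.96). Without replicate 1 r was 0.97, 0.88 and 0.96, on arrays that had also served to pick these probes. The endothelial genes Cdh5 and Tek had r = 0.61 and -0.38 with Flt4, and -0.18 and -0.40 without replicate 1.

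Kdr was most like the myogenic factor Myog (0.88), the angiotensin receptor Agtr1a (0.87) and Cd34 (0.83), a surface protein of endothelial and progenitor cells. Without replicate 1 these were 0.89, 0.88 and 0.84, again on arrays that had served to pick these probes. The endothelial genes Pecam1, Cdh5 and Tek had r = 0.34, 0.60 and 0.15 with Kdr, and 0.22, 0.66 and 0.22 without replicate 1. Vegfb was most like the cytokine receptor chain Csf2ra (0.96), the transcriptional regulator Cited2 (0.96) and Ace (0.96), the angiotensin-converting enzyme, which became 0.06, 0.23 and 0.78 without replicate 1. Vegfa was most like the calpain Capn3 (0.91), the adhesion receptor Cd44 (0.80) and the enolase Eno2 (0.78), and Vegfc like endothelin Edn1 (0.97), cyclin Ccnd1 (0.89) and angiotensinogen Agt (0.87). Agtr1a, Capn3, Cd44, Edn1, Ccnd1 and Agt did not exceed the noise on all arrays.

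Markers of the tissue and of its vessels were checked beside these values. The slow fibre genes Myh7 and Mb, the 2 probed of 6 listed, were measured on all arrays, at 6.60 ± 0.48 and 6.58 ± 0.25 (SD, n = 6). So were the fast fibre genes Myh1, Myh2 and Myh4, the 3 probed of 5 listed. Fibre genes were higher on replicate 1, where the mean level of the slow list was 7.25, against 6.31 to 6.60 on the other arrays, and that of the fast list 5.92, against 4.76 to 5.08. Fabp4, listed here as a fat cell gene, was 0.88 higher there, and Lipe of the same list was above 0 on 5 arrays only. The part of cell content in the values of the VEGF genes was not tested. Of 10 endothelial markers 4 were probed, and Pecam1, Cdh5 and Tek were measured on all arrays while Nos3 was above 0 on 4 of 6. The summed deposited intensity of the 4, not scaled by array, ranged from 0.0546 to 0.0667 over replicates 2 to 6. That of replicate 1 lay within this range at 0.0586. On the level scale used for the fibre genes, the mean of Pecam1, Cdh5 and Tek was lowest on replicate 1. It was 0.41 there, against 0.52 to 1.01 on the others, with 2 of the 3 markers lower and 1 higher. Of 3 lymphatic markers none was on the array, so the cell type behind Flt4 could not be checked. Smooth muscle and pericyte (1 of 5 listed), fibroblast (1 of 3) and fat cell genes (2 of 3) were thinly covered, and macrophage genes (0 of 4) not at all.

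Set against the mean level of Pecam1, Cdh5 and Tek on the same array, Flt1 ran from -0.71 to -0.04 over replicates 2 to 6 and reached -2.56 on replicate 1. Flt4 ran from -2.27 to -1.14 and reached -3.01, with a value on replicate 1 that did not exceed the noise. Kdr ran from -1.18 to -0.68 and reached -0.66. On this scale replicate 1 minus the mean of replicates 2 to 6 was -2.25 for Flt1, -1.10 for Flt4 and 0.24 for Kdr. The difference of Flt4 rests on that value near background, and that of Flt1 on an intensity not far above the noise. The mean level of the markers was 0.41 on replicate 1 and 0.52 to 1.01 on the others. The part of vessel content in these differences was not tested.

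Of the genes that act beside these ligands and receptors, 8 of 14 listed co-receptor and modulator symbols were probed and 7 were measured on all arrays. Vegfd, a further ligand of Flt4, had a level of 1.21 ± 0.60 (SD, n = 6) and replicate 1 minus the mean of replicates 2 to 6 was -1.21. For Angpt2, which loosens vessels, it was -0.94. The inhibitors of vessel growth Thbs1 and Thbs2 were 1.24 and 1.95 higher there. In all, 3 of the 7 were lower and 4 higher on replicate 1, where the median difference over all 171 measured probes was 0.13. Of the 4, Tek (0.14) lay near that median, and Itgav exceeded the noise on 4 arrays only. Angpt1 was not above 0 on every array.

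Of 13 listed regulators of VEGF transcripts 4 were probed. Hif1a, the oxygen-regulated activator of Vegfa, was at -1.88 ± 0.34 (SD, n = 6), and its partner Arnt at 0.31 ± 0.20. Cited2, which restrains Hif1a, had a level of 0.32 ± 0.75, with an SD of 0.23 when replicate 1 was left out. Vhl, which marks Hif1a for breakdown, was above 0 on 0 of 6 arrays. Of 21 listed genes downstream of the receptors Nos3 alone was on the array.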

How the data were processed

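RNA of 6 samples of suspended soleus was measured on arrays of 223 probes. The deposited table holds linear intensities that the authors had background-subtracted, as values below 0 in the deposited table show. How they were scanned and scaled is not stated in the labels or the table. Precision is limited by the number of arrays. Probes were named through the platform annotation, and all 7 gene numbers matched the RefSeq table of GRCm38.p6.

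Probes above 0 on all 6 arrays (171) were log2-transformed with no pseudocount added and centred on each array's median. Correlations were tested by exact permutation over 720 pairings and adjusted by Benjamini-Hochberg over all 14535 probe pairs. The test was tested on simulated data. Alternatives were other scalings, filters, a background offset (chosen after seeing the data), Spearman correlation and each array left out. Binding pairs were Vegfa-Flt1, Vegfa-Kdr, Vegfb-Flt1, Pgf-Flt1, Vegfc-Kdr and Vegfc-Flt4. Members, gene and marker lists were chosen with earlier results of these data known. Named are the members, the 3 likest probes of each and the probed list genes. Comparisons of receptors with endothelial markers and of replicate 1 with the other arrays were added after seeing the values. Python 3.11.15, numpy 2.4.6, pandas 2.3.3 and scipy 1.17.1 were used.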

Additional observations from a re-analysis of the deposited data

Results flagged for a closer look

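The levels of the 6 measured genes and the 5 ligand-receptor differences were searched for an array lying farther from its nearest neighbour, as a share of the whole range, than Dixon's critical ratio for 6 arrays allows. Chance gives this in about 1 group in 20, but here it held for 27 of the 171 measured probes (15.8%) and 2230 of the 14535 differences between them (15.3%). It was found in 5 of the 11, which share genes and arrays: 2 of the 6 levels and 3 of the 5 differences, which repeat Flt1, Vegfb and Vegfa. On replicate 1 the level of Flt1 was the lowest (ratio 0.824) and that of Vegfb the highest (0.807). The differences Vegfb minus Flt1 (0.838) and Vegfa minus Flt1 (0.773) were highest on the same array. On replicate 6 the difference Vegfa minus Kdr was the lowest (0.678), at -1.58 against -0.84 to -0.49 on the other arrays, and there Vegfa had its lowest level (-1.44) and Kdr its highest (0.15).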

How the results depend on the processing

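No paired analysis was possible because all arrays belong to 1 group. The count of genes detected on all arrays was 6, between 6 and 7 with an array left out and 4 with the noise as the bound. None of the 5 binding pairs passed under any alternative. The smallest exact p by Pearson, 0.0014 with 6 arrays and 0.0083 with 5, makes passing hard over 14535 pairs. By Spearman it is larger. The lack of passing pairs is thus no sign of stability. The adjusted exact permutation p for Vegfb with Flt1 ranged from 0.37 to 0.86. Their r ranged from -0.997 to -0.64 with 1 array left out and from -0.98 to -0.46 with the other scalings, filters and Spearman's rho, but was 0.87 without both replicates 1 and 5.

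The other r values turned sign. Without centring r was 0.70 for Vegfa with Kdr and 0.38 for Vegfc with Kdr. With equal totals it was 0.48 for Vegfa with Flt1, 0.31 for Vegfa with Kdr, 0.65 for Vegfc with Kdr and 0.28 for Vegfc with Flt4. For Vegfc with Kdr it was 0.23 after quantile normalization, 0.24 after the background offset and 0.078 once a lowess curve was removed, which gave 0.23 for Vegfc with Flt4. With an array left out r ranged from -0.37 to 0.40 for Vegfa with Flt1, -0.80 to 0.37 for Vegfa with Kdr, -0.55 to 0.29 for Vegfc with Kdr and -0.70 to 0.65 for Vegfc with Flt4. The cause was not tested.

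The difference Vegfc minus Kdr moved to -1.74 without a filter and with a pseudocount of 0.001, and to -1.70 with the offset, both of which raise low values by construction. With an array left out the SD ranged from 0.21 to 1.20 for Flt1, 0.10 to 0.50 for Vegfb, 0.10 to 0.19 for Kdr, 0.17 to 0.32 for Vegfa, 0.37 to 0.55 for Vegfc and 0.45 to 0.80 for Flt4. Kdr's SD reached 0.32 with equal totals and Vegfa's 0.54 without centring. Signal near background limits Vegfc, Flt4 and Pgf. It also limits Flt1 on replicate 1, where the intensity was 0.0026 and the noise of the array 0.0020.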
